A study of Mus musculus with 16 samples.

Results

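The mitochondrially encoded genes are the 37 genes of the mouse mitochondrial chromosome, chosen here as every gene whose GRCm38 symbol starts with mt-. They are 13 protein-coding genes, 2 rRNA genes and 22 tRNA genes, out of 54532 genes in the deposited tables. They were measured by RNA-seq in parvalbumin (PV) interneurons sorted from the cortex of adult mice aged 113.1 ± 11.6 days over the whole study. The control group, PV-Cre;lsl-eGFP, had 9 libraries and expressed eGFP. The other group, PV-Cre;lsl-eGFP-GluA2, had 7 libraries and expressed eGFP fused to the AMPA receptor subunit GluA2, in order to test what happens when calcium-permeable AMPA receptors are removed. Both groups carry PV-Cre, so the transgene is switched on in every cell in which that driver has been active, and in both groups the green fluorescence was the sorting gate. Per the labels, brain slices were digested with pronase, fixed in 4% paraformaldehyde for 15 min and broken up into single cells, nucleated green cells were collected from each mouse cortex, and polyA-selected RNA was sequenced as 150-bp read pairs.

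The mitochondrial genome encodes the core subunits of the respiratory chain and ATP synthase, and the rRNAs and tRNAs needed to translate them inside the organelle. Both of its strands are copied into long transcripts, which are cut mostly at the tRNAs that lie between the other genes; the rRNAs and most mRNAs then receive short polyA tails, so that polyA selection can recover them. PV interneurons fire fast and are known for dense mitochondria and a high demand for oxidative phosphorylation. All other subunits of the respiratory chain, and the proteins that copy, cut and translate mitochondrial RNA, come from nuclear genes.

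PV interneuron markers were present in each library. All 11 PV interneuron markers (Pvalb, Gad1, Gad2 and others) had counts in all 16 libraries, with a summed level of 5932 to 11060 CPM (counts scaled to a common library total). Pvalb itself was at 115 to 396 CPM, so most of that sum came from other markers on the list. Markers of other interneuron classes summed to 89.7 to 149 CPM and those of excitatory neurons to at most 289.7 CPM. Those of astrocytes summed to 115 to 187 CPM, those of oligodendrocytes to 80.8 to 156 CPM and those of microglia to 30.5 to 62.4 CPM. No marker on these lists was at 0 throughout. Gria2, which encodes GluA2, ranged from 475 to 646 CPM in 8 eGFP libraries and was 729 CPM in the remaining one, against 796 to 1109 CPM in the eGFP-GluA2 libraries, so the groups did not overlap. Total counts were 7454165 to 15462544 per library. The libraries also differed, in both groups, in reads from 1450 genes for olfactory and vomeronasal receptors, proteins of the nose. This level is called the background here: it was 82.4 to 162 CPM in 5 libraries (low: eGFP 7 to 9, eGFP-GluA2 6 and 7), 676 to 1277 CPM in 5 (middle: eGFP 5 and 6, eGFP-GluA2 2, 4 and 5) and 1911 to 4148 CPM in 6 (high: eGFP 1 to 4, eGFP-GluA2 1 and 3). The PV marker sum was 10098 to 11060 CPM in the low class and 5932 to 8008 CPM in the high class.

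Several members share sequence with each other or with nuclear copies, and the sequences below are shown because they decide which reads can be assigned to a member. GENCODE M21 annotates 7 nuclear genes in 1 run on chromosome 1 (GRCm38, chr1:24611535-24616197, minus strand) that copy the mitochondrial stretch chrM:6390-11042, from the last part of mt-Co1 to the middle of mt-Nd4. Over their 4140 aligned bases, 4138 were identical to the mitochondrial genes. The 2 differences are A1066T, counted from the first base of mt-Co1, and T3C, counted from the first base of mt-Nd3; the differing base is in capitals in the following 4 lines, which start at the copy's first aligned base.
mt-Co1: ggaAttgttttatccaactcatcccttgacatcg
Gm29216: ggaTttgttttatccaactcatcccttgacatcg
mt-Nd3: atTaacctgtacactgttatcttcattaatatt
Gm28438: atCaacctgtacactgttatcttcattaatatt
The other copies, Gm28661 (681 of 681 bases of mt-Co2), Gm10925 (678 of 678 of mt-Atp6), Gm28437 (783 of 783 of mt-Co3), Gm10222 (294 of 294 of mt-Nd4l) and Gm28439 (876 of 876 of mt-Nd4), had no difference in their aligned bases. No copy is annotated for mt-Atp8, which lies within the run.

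Members also overlap one another. In the end of mt-Atp8 (chrM:7907-7969) the 43 bases in capitals are also the start of mt-Atp6, on the same strand. The 14 bases in capitals at the end of mt-Nd5 (chrM:13526-13565, plus strand) are those at the end of mt-Nd6 (chrM:13552-13591, minus strand), read from the opposite strand.
mt-Atp8: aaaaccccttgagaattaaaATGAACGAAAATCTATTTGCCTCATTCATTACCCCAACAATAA
mt-Nd5: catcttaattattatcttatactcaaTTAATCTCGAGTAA
mt-Nd6: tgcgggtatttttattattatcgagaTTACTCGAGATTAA
mt-Nd6 is the only protein-coding gene whose mRNA is read from the minus strand as annotated. The sources used here do not say whether counting used strand, so reads of mt-Nd6 and of RNA from the opposite strand at its locus cannot be told apart.

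Of the 22 tRNA genes, the 4 with the highest mean count are shown with their anticodon in capitals.
mt-Tp: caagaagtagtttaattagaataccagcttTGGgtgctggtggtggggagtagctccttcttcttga
mt-Tc: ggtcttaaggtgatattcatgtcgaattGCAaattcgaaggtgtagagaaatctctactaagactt
mt-Tn: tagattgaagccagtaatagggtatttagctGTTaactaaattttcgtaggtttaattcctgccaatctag
mt-Tl2: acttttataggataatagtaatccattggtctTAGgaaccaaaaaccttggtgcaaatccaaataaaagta
These serve proline (mt-Tp, chrM:15356-15422), cysteine (mt-Tc, chrM:5192-5257) and asparagine (mt-Tn, chrM:5089-5159), all 3 on the minus strand, and leucine (mt-Tl2, chrM:11671-11741, plus strand).

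Mitochondrial RNA varied widely between libraries, and the groups overlapped. The 13 protein-coding genes held 0.0268% of counts in the lowest eGFP library, 0.473% at the median and 0.601% in the highest. In the eGFP-GluA2 group the lowest, median and highest were 0.0509%, 0.481% and 0.594%. The range was thus 22.5-fold over the 16 libraries, while the eGFP mean was 0.4001% ± 0.216 (SD, n = 9) and the eGFP-GluA2 mean 0.396% ± 0.215 (SD, n = 7), a difference of -0.0045 percentage points. These are deposited counts, which were low for members inside the chromosome 1 run of copies. On recovered reads (defined below) the 13 genes held 0.0354% to 1.09%, a 30.6-fold range, with a difference of 0.050 percentage points. In TPM they held 0.0650% to 2.25%, a 34.6-fold range, with a difference of 0.16 percentage points. The level and the sign of the difference thus depended on the measure. The 24 RNA genes held 0.0164% to 0.337% of counts in eGFP (median 0.257%) and 0.0262% to 0.296% in eGFP-GluA2 (median 0.274%), with means of 0.200% ± 0.116 (SD, n = 9) and 0.226% ± 0.0952 (SD, n = 7). For both sums the difference of means was smaller than 1 SD between libraries. Within the low, middle and high class of background the difference was -0.0048, 0.013 and -0.14 percentage points for the protein-coding genes and -0.019, 0.015 and 0.045 for the RNA genes. In these pooled cells, fewer cells of a type and less RNA per cell cannot be told apart.

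The 5 libraries with the least mitochondrial RNA all had high background. All 37 members together held 0.0432% of counts in eGFP 1, 0.181% in eGFP 3, 0.345% in eGFP 4, 0.0771% in eGFP-GluA2 1 and 0.421% in eGFP-GluA2 3. The sixth high-background library, eGFP 2, held 0.801%. The middle class ran from 0.615% to 0.756% and the low class from 0.834% to 0.938%, so these 2 classes did not overlap. Nuclear genes of oxidative phosphorylation, which encode the partner subunits, ranged only 2.11-fold, from 0.524% to 1.11% of counts, and were also lowest in the high class (0.524% to 0.834%). Depth moved with the classes as well, with 13175003 to 15462544 counts in the low class and 7454165 to 10960661 in the high class. So did endothelial and mural markers, which summed to 9.57 to 16.1 CPM in the low class and 41.9 to 83.4 CPM in the high class, and microglia markers, at 30.5 to 37.0 and 50.4 to 62.4 CPM. Marker sums of the other non-PV lists overlapped between these classes. Astrocyte markers were at 117 to 184 and 115 to 187 CPM, oligodendrocyte markers at 83.0 to 156 and 96.0 to 139 CPM. Excitatory neuron, other interneuron and erythroid markers overlapped as well. The part of background, depth and other cell types in the mitochondrial level was not tested.

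**Figure D1:**
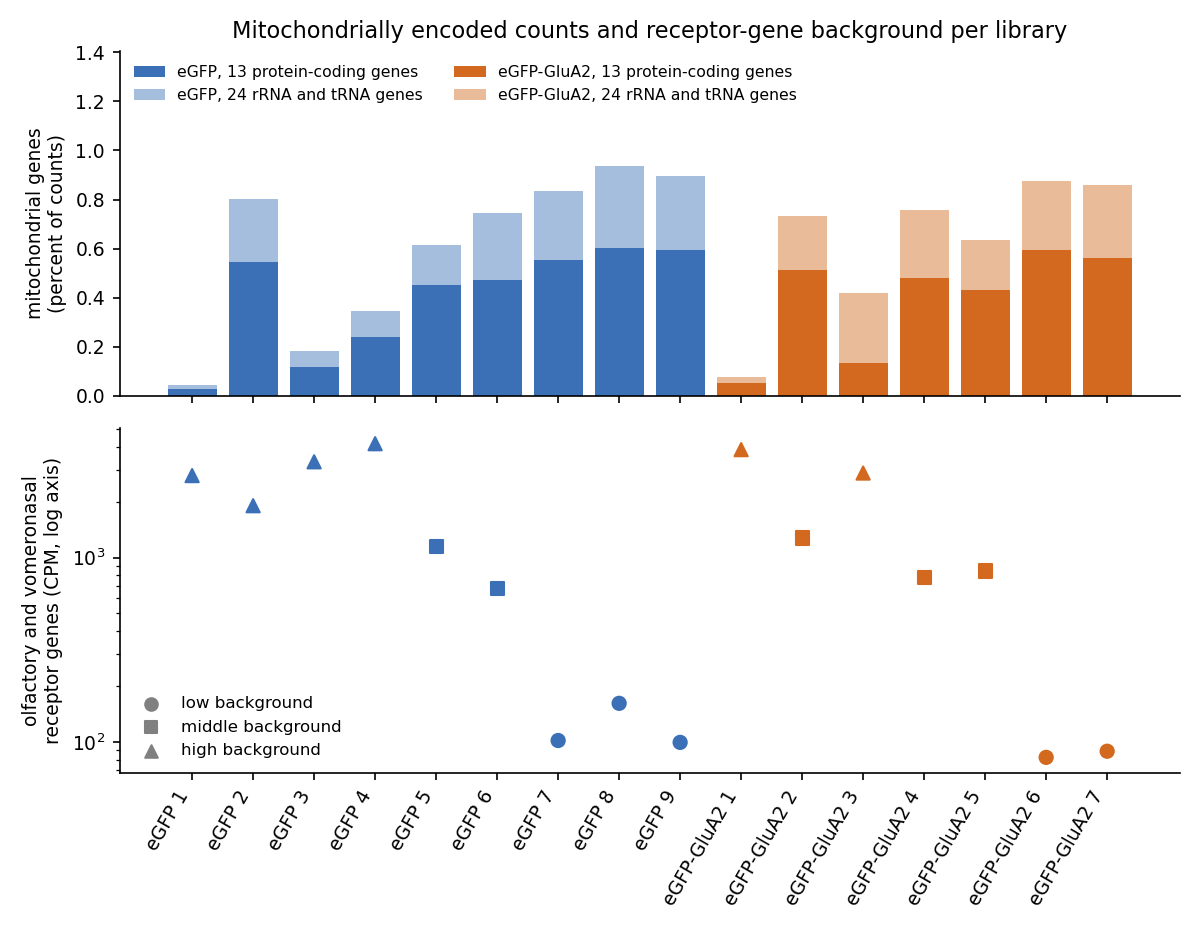
Bars show the percent of each library's deposited counts in the 13 protein-coding genes (solid) and the 24 rRNA and tRNA genes (pale). The 9 eGFP libraries are blue and the 7 eGFP-GluA2 libraries orange. Points below show the background in CPM on a log axis, with their shape giving the background class. The total height runs from 0.0432% to 0.938% in eGFP and from 0.0771% to 0.875% in eGFP-GluA2, and the 5 shortest bars stand above triangles, the high-background class.

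The spread between libraries within a group was larger for these genes than for most others. The SD of log2 CPM within groups had a median of 1.74 over the 13 protein-coding genes (1.28 to 1.95) and was 1.55 and 1.62 for the 2 rRNA genes. It was 0.66 at the median over 78 nuclear genes of oxidative phosphorylation that were tested, and 0.48 over all 26257 genes tested. Over the 5893 more abundant genes, with log2 CPM averaging 5 or more, it was 0.37.

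Levels of single genes are given in TPM, a share of all transcripts that is scaled for transcript length. For short genes a comparison with other genes rests on that scaling. mt-Atp8 (204 bases) had 12549 recovered reads (defined below) and a mean of 1492 TPM. mt-Atp6 (681 bases) had 79336 reads and a mean of 806 TPM, so it had more reads per annotated base but a lower TPM. The 3 complex IV genes, which encode the catalytic core of cytochrome c oxidase, stood among the highest. mt-Co3 (chrM:8607-9390) was at 122 TPM in the lowest eGFP library, 1811 at the median and 3298 in the highest, and at 196, 1719 and 5132 in eGFP-GluA2. mt-Co1 (chrM:5328-6872), the haem-bearing subunit, was at 106, 1735 and 2988 TPM in eGFP and at 183, 1690 and 4432 in eGFP-GluA2. mt-Co2 (chrM:7013-7696), which takes electrons from cytochrome c, was at 99.7, 1304 and 2294 TPM in eGFP and at 183, 1532 and 3401 in eGFP-GluA2. For each of the 3 genes the lowest library of both groups was replicate 1 and the highest library overall was eGFP-GluA2 6, of the low-background class, and the groups overlapped.

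The ATP synthase genes mt-Atp8 and mt-Atp6 share a transcript, and both encode membrane subunits of complex V. mt-Atp8 (chrM:7766-7969) ranged from 91.6 to 2168 TPM in eGFP (median 1549) and from 182 to 3171 in eGFP-GluA2 (median 1507). mt-Atp6 (chrM:7927-8607) ranged from 58.1 to 1292 TPM in eGFP (median 820.1) and from 88.8 to 1739 in eGFP-GluA2 (median 843). mt-Cytb (chrM:14145-15288), the only member in complex III, ranged from 25.8 to 682 TPM in eGFP (median 465) and from 53.8 to 946 in eGFP-GluA2 (median 484). Again the lowest library in each group was replicate 1.

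The 7 complex I genes encode membrane subunits of NADH dehydrogenase and were lower in TPM than the complex IV and V genes. mt-Nd1 (chrM:2751-3707) was the most abundant, with 33.5 to 955 TPM in eGFP (median 616) and 57.5 to 1343 in eGFP-GluA2 (median 621). mt-Nd4l (chrM:9877-10173) ran from 22.4 to 485 TPM in eGFP (median 366) and from 58.0 to 495 in eGFP-GluA2 (median 386), and mt-Nd3 (chrM:9459-9806) from 25.2 to 872 (median 285) and from 32.9 to 921 (median 299). These 2 differed in where they were high: mt-Nd3 was at 598 to 921 TPM in the low-background class and at 232 to 330 in the middle class, whereas mt-Nd4l was at 357 to 443 and 326 to 495. mt-Nd4 (chrM:10167-11544) ran from 20.8 to 343 TPM in eGFP (median 293) and from 31.6 to 426 in eGFP-GluA2 (median 284). mt-Nd2 (chrM:3914-4951) ran from 20.7 to 302 TPM (median 239) and from 34.1 to 296 (median 255). mt-Nd5 (chrM:11742-13565) ran from 14.2 to 230 TPM in eGFP (median 162) and from 23.8 to 229 in eGFP-GluA2 (median 198). mt-Nd6 (chrM:13552-14070), the minus-strand gene, was the lowest, at 11.2 to 185 TPM in eGFP (median 71.7) and 19.4 to 159 in eGFP-GluA2 (median 88.7). In every complex I gene the ranges of the groups overlapped.

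**Figure D2:**
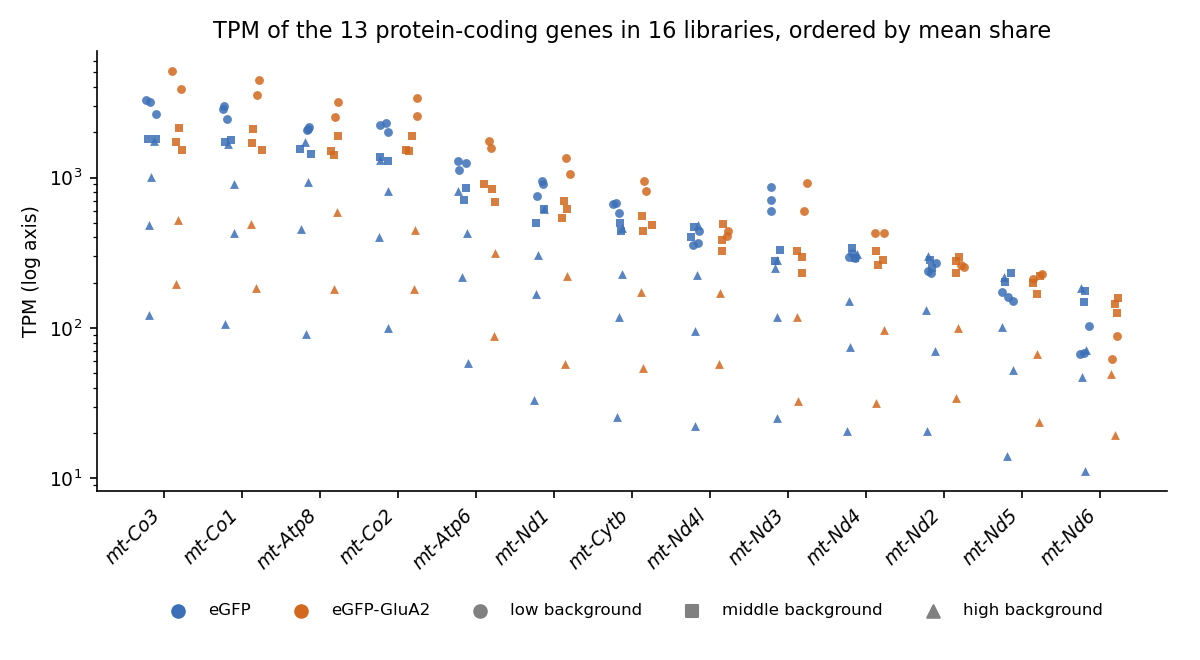
TPM (log axis) of each protein-coding gene in each of the 16 libraries, with genes ordered from left to right by their mean share; colour gives the group and shape the background class. In every gene the blue and orange points overlap, and replicate 1 of each group is the lowest point of its colour, at 122 and 196 TPM for mt-Co3 and at 11.2 and 19.4 TPM for mt-Nd6.

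The order of the 13 genes was steadier than their level. As a share of their summed TPM, mt-Co3 held 18.7% ± 2.08 (SD, n = 16), mt-Co1 17.4% ± 1.57, mt-Atp8 15.4% ± 1.51 and mt-Co2 14.7% ± 1.16. mt-Co3 exceeded mt-Co1 in 15 of 16 libraries, while mt-Co1 exceeded mt-Atp8 in 11 and mt-Atp8 exceeded mt-Co2 in 8, so that the order of these last 3 was within the spread of their differences. mt-Co2 exceeded mt-Atp6 (8.15% ± 0.504) in all 16 libraries. mt-Atp6 exceeded mt-Nd1 (5.83% ± 0.442), and mt-Nd1 exceeded mt-Cytb (4.53% ± 0.324), likewise in all 16. mt-Cytb exceeded mt-Nd4l (3.66% ± 1.03) in 13 libraries. mt-Nd4l and mt-Nd3 (3.65% ± 0.906) could not be ordered, each being the higher in 8 libraries. mt-Nd3 exceeded mt-Nd4 (2.67% ± 0.467) in 12 libraries and mt-Nd4 exceeded mt-Nd2 (2.37% ± 0.637) in 14. mt-Nd2 exceeded mt-Nd5 (1.73% ± 0.460) and mt-Nd5 exceeded mt-Nd6 (1.22% ± 0.551) in all 16 libraries. Shares of genes with a nuclear copy depend on how the deposited TPM split reads between gene and copy. The places of the short genes mt-Atp8, mt-Nd4l and mt-Nd3 in this order also depend on the length scaling of TPM.

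The make-up of mitochondrial mRNA differed between the low-background libraries and the rest. mt-Nd6 held 0.453%, 0.754% and 0.434% of the summed TPM of the 13 genes in eGFP 7 to 9, and 0.276% and 0.494% in eGFP-GluA2 6 and 7. In the other 11 libraries its share was 1.26% to 1.85%, with no overlap. These included eGFP 2 (1.83%), whose mitochondrial level was close to that of the low class in deposited counts only. In TPM its 13 protein-coding genes held 1.01%, within the middle class (0.902% to 1.14%) and below the low class (1.37% to 2.25%). The absolute level of mt-Nd6 was 61.9 to 103 TPM in the low class (median 68.1), 126 to 176 TPM in the middle class (median 150) and 11.2 to 185 TPM in the high class (median 48.1), so it followed the share between the low and middle class only. mt-Co1 was at 2436 to 4432 TPM in the low class and at 1537 to 2091 TPM in the middle class. Of the 13 genes, the share of 5 was lower in each low-background library than in each of the others, that of 1 was higher and those of 7 overlapped. Beside this, 32.6% of all genes tested had CPM that did not overlap between the low-background libraries and the others, and of the 13 members mt-Co1 and mt-Cytb did in CPM, both higher in the low class. Separation along these classes is thus common, and the shares are not independent of each other, since they sum to a whole. The 5 lower ones were mt-Nd2 (1.13% to 1.97% against 2.38% to 3.18%), mt-Nd4l (1.97% to 3.23% against 3.39% to 5.07%), mt-Nd4 (1.89% to 2.37% against 2.498% to 3.33%), mt-Nd5 (0.948% to 1.28% against 1.74% to 2.24%) and mt-Nd6. These encode complex I subunits, but the other 2 complex I genes overlapped: mt-Nd1 had medians of 5.87% in the low class and 5.95% in the others, and mt-Nd3 of 4.10% and 3.09%. The higher one was mt-Co3, at 19.4% to 22.8% against 15.6% to 19.0%. The deposited counts, which hold most reads of both genes, gave a ratio of mt-Nd5 to mt-Co1 of 0.0765 to 0.102 in the low class and of 0.146 to 0.207 in the other libraries. These classes come from the background, not from the labels, and the difference between them is a description.

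By group, the mt-Nd6 share did not separate the libraries. The eGFP mean was 1.28% ± 0.582 (SD, n = 9) and the eGFP-GluA2 mean 1.15% ± 0.545 (SD, n = 7), a difference of -0.12 percentage points, with ranges of 0.434% to 1.85% and 0.276% to 1.69%. Within the low, middle and high class the difference of means was -0.16, -0.26 and -0.062 percentage points. In deposited counts the share was 1.10% ± 0.462 (SD, n = 9) and 1.07% ± 0.463 (SD, n = 7).

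The mitochondrial rRNAs, which form the small (mt-Rnr1, chrM:70-1024) and large (mt-Rnr2, chrM:1094-2675) subunit of the mitochondrial ribosome, followed the mRNAs in 15 libraries and stood apart in 1. mt-Rnr2 was at 105.2 to 2045 TPM in eGFP (median 1312) and at 147 to 2471 in eGFP-GluA2 (median 1591). mt-Rnr1 was at 28.6 to 439 TPM in eGFP (median 378) and at 44.5 to 943 in eGFP-GluA2 (median 403), and its highest value, 943, was that of eGFP-GluA2 3. The groups overlapped for both genes. The ratio of rRNA counts to protein-coding counts was 2.10 in eGFP-GluA2 3 and 0.357 to 0.605 in the other 15 libraries. The ratio of mt-Rnr1 to mt-Rnr2 counts was 0.328 in eGFP-GluA2 3 and 0.103 to 0.186 elsewhere. With that library the rRNA ratio had an eGFP mean of 0.501 ± 0.0744 (SD, n = 9) and an eGFP-GluA2 mean of 0.720 ± 0.611 (SD, n = 7); without it the eGFP-GluA2 mean was 0.490 ± 0.0513 (SD, n = 6). Its mt-Nd6 share, 1.46%, was within the range of the other libraries.

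**Figure D3:**
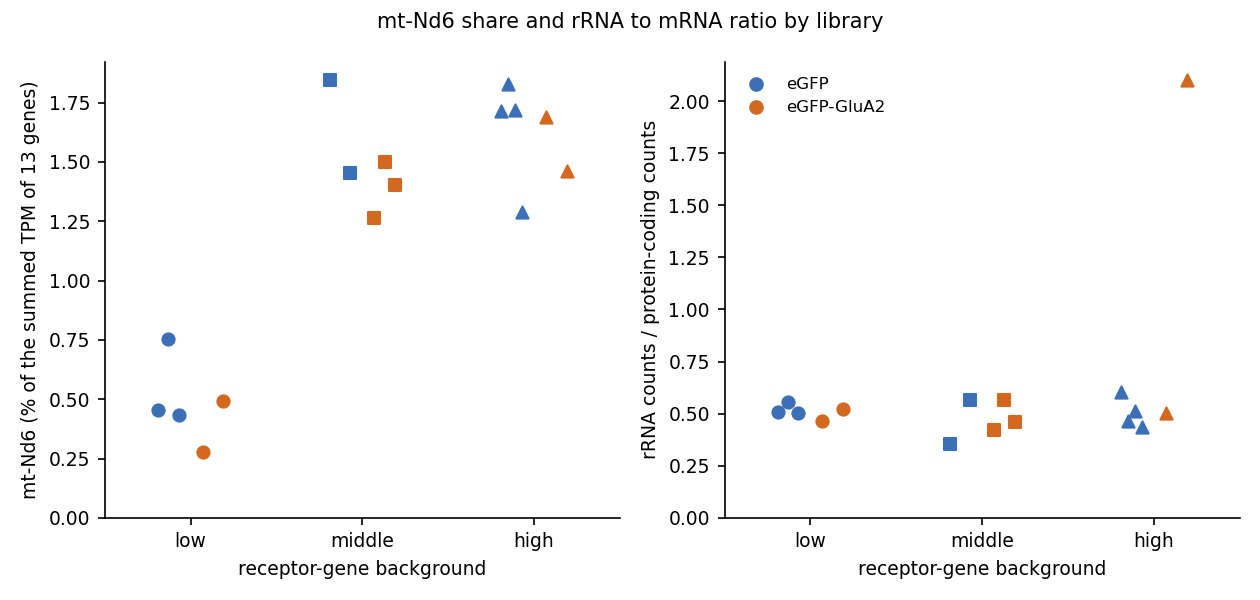
Left, mt-Nd6 as a percent of the summed TPM of the 13 protein-coding genes; right, rRNA counts divided by protein-coding counts; each point is 1 library, placed by background class and coloured by group. The 5 low-background libraries lie at 0.276% to 0.754% and the others at 1.26% to 1.85% on the left, and on the right 1 eGFP-GluA2 library lies at 2.10 above the other 15.

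tRNA genes had few counts, all in the deposited count table. Together the 22 genes had 4276 counts over the 16 libraries, 20 to 522 per library, and 20 of them had a count somewhere. In the TPM table and in the authors' normalized table all 22 were listed at 0. mt-Tp had 1777 counts, mt-Tc 978 and mt-Tn 788, and only these 3 had counts in all 16 libraries; mt-Tl2 followed with 147. mt-Tp was at 0.703 to 16.7 CPM in eGFP (median 10.5) and 1.21 to 13.6 CPM in eGFP-GluA2 (median 11.7). mt-Tc was at 0.586 to 9.66 CPM (median 4.70) and 0.402 to 9.89 CPM (median 4.16), and mt-Tn at 0.234 to 7.10 CPM (median 4.48) and 0.939 to 7.57 CPM (median 4.08). mt-Tl2 was at 0.0715 to 2.72 CPM in eGFP (median 0.745) and 0 to 1.28 CPM in eGFP-GluA2 (median 0.748). The groups overlapped in all 4. The 7 minus-strand tRNA genes outside the chromosome 1 match held 3731 counts, most of them in mt-Tp, mt-Tc and mt-Tn, and the 10 plus-strand ones 542. The other minus-strand genes there, mt-Te, mt-Tq, mt-Ty and mt-Ta, had 65, 61, 50 and 12 counts, within the range of the plus-strand ones (4 to 147). The 5 tRNA genes inside the match, mt-Ts1, mt-Td, mt-Tk, mt-Tg and mt-Tr, held 3 counts. A tRNA gene spans 59 to 75 bases, less than a read of 150 bases, so an untrimmed read of full length counted here also covers sequence outside the gene. Uncut precursors and RNA of the opposite strand cannot be told apart in such reads.

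Deposited counts were low for the members that lie wholly inside the chromosome 1 match. The authors' normalized values could be turned back into whole reads, called recovered reads, and the 2 tables were compared. Members outside the chromosome 1 match had deposited counts at 88.8% (mt-Rnr2) to 96.8% (mt-Nd6) of their recovered reads. mt-Co1, with 31.3% of its bases inside, was at 74.2%, and mt-Nd4, with 63.6% inside, at 53.3%. The 6 protein-coding members wholly inside were at 2.52% (mt-Atp6), 2.90% (mt-Co3), 3.02% (mt-Nd4l), 4.07% (mt-Co2), 4.71% (mt-Atp8) and 9.33% (mt-Nd3). mt-Co3 thus had 6514 counts summed over the 16 libraries and 224656 recovered reads, and mt-Atp8, with no annotated copy of its own, had 591 and 12549. Among 11245 nuclear protein-coding genes with at least 1000 recovered reads the median was 104%, and 4.62% of them were under 20%. The sources used here do not give how multiply mapping reads were counted in either table.

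**Figure D4:**
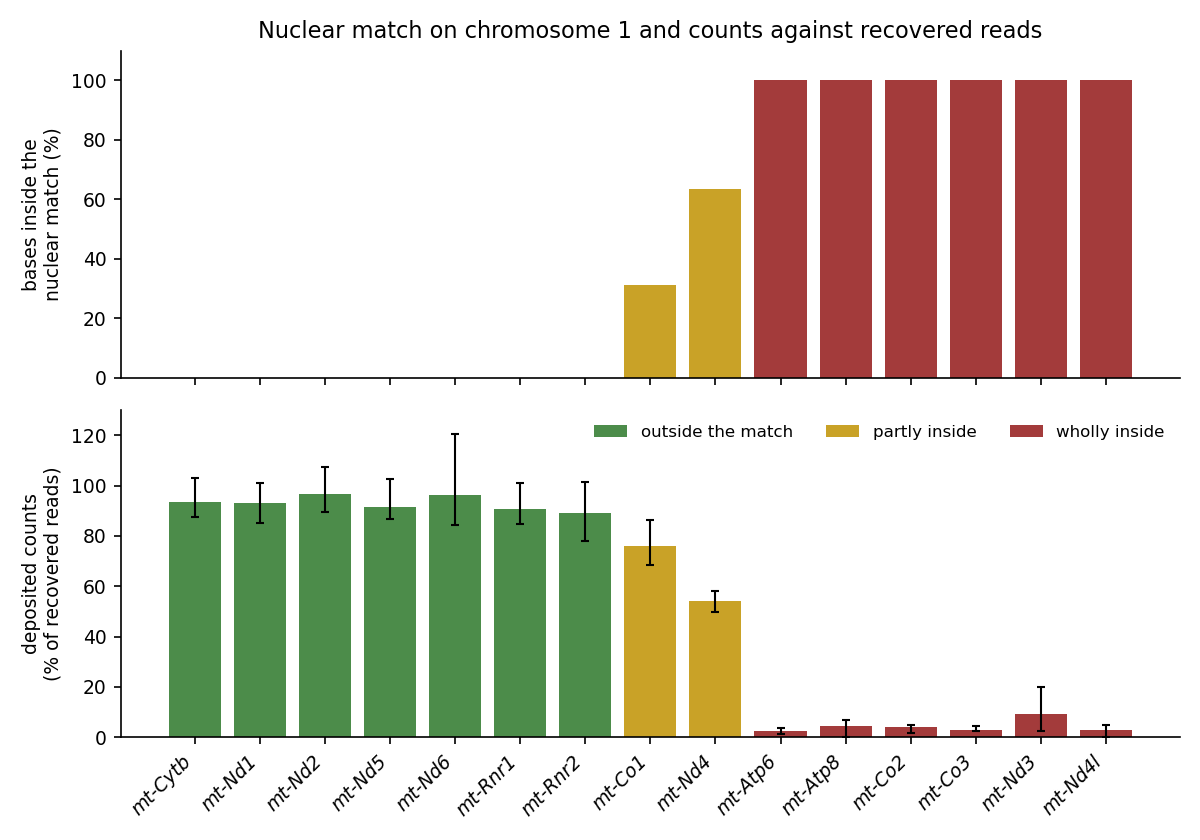
Above, the percent of each gene's bases that lie inside the chromosome 1 match; below, deposited counts as a percent of recovered reads, with bars at the median of 16 libraries and whiskers from the lowest to the highest library. The 7 genes outside the match have medians of 89.2% to 96.7%, and the 6 genes wholly inside have medians of 2.47% to 9.24%.

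The nuclear copies held a small part of all mitochondrial-type counts, but a large part of those of the members wholly inside the match. The 16 annotated nuclear genes with at least 90% identity to a member over at least 100 bases held 1.60% to 4.45% of the counts of members and copies together (mean 3.28%), with eGFP at 2.63% to 4.14% and eGFP-GluA2 at 1.60% to 4.45%. The lowest value was that of eGFP-GluA2 3. The 3 copies with the highest mean count were Gm13340, a copy of mt-Co1 at 97.6% identity (chr2:22588103-22589647), with 33 to 1601 counts per library, Gm28661 with 14 to 684 and Gm13341, a copy of mt-Co2 at 95.9% identity (chr2:22587291-22587962), with 13 to 686. In recovered reads Gm13340 had 2 to 15 per library and Gm13341 0 to 14. In deposited counts Gm28661 held 43.5% to 68.3% of the counts of mt-Co2 and itself, Gm10925 39.5% to 61.5% of those with mt-Atp6 and Gm28437 38.9% to 54.1% of those with mt-Co3. Gm28438 held 45.5% to 92.9% of those with mt-Nd3, and Gm10222 51.2% to 100% of those with mt-Nd4l. For mt-Co1 and mt-Nd4, which lie partly inside, the copies held 0.347% to 1.23% and 1.47% to 4.47%. The split between a member and its identical or nearly identical copy was different in recovered reads, and varied between libraries for some pairs. Gm28661 took 0 to 15.4% of the reads of mt-Co2 and itself, and was at 0 in 5 libraries. Gm28438 took 29.4% to 62.6% of the reads shared with mt-Nd3, while Gm10222 and Gm28439 were at 0 in all 16 libraries. For the 6 members wholly inside the match, both tables are therefore uncertain, and the values of mt-Co1, mt-Nd1, mt-Nd2, mt-Nd5, mt-Nd6, mt-Cytb and the rRNAs rest on more reads of their own.

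No mitochondrial gene was past the threshold between eGFP-GluA2 and eGFP. edgeR's quasi-likelihood test, fitted on all 26257 genes that passed the filter on low counts, tested 18 members: the 13 protein-coding genes, both rRNA genes, mt-Tn, mt-Tc and mt-Tp. None was past the adjusted p threshold of 0.05, against 1 gene of all tested (0.00381%). None had an unadjusted p under 0.05, against 293 of all genes tested (1.12%). DESeq2 gave 35 members a p-value, but most tRNA genes among them got no adjusted p and so could not be called. None of the others was past the threshold by DESeq2, against 0.0174% of all genes to which it gave a p-value. The same held with the background as a covariate (0.0343% of all genes past the threshold) and on recovered reads (0.0127%). In none of the 18 did the log2 CPM of the groups fail to overlap, against 0.019% of all genes tested. Gria2, the check on the genotype, had a log2 fold change of 0.71 ± 0.16 (SE, edgeR adjusted p = 1.00, DESeq2 adjusted p = 0.00812), and Pvalb -0.0069 ± 0.34 (SE). With the background as a covariate, edgeR put Gria2 at 0.69 ± 0.11 (SE, adjusted p = 0.0145). The edgeR fit without covariates thus missed Gria2, so a gene not called in that fit is not shown to be unchanged.

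The log2 fold changes (eGFP-GluA2 over eGFP) of the 13 protein-coding genes ran from -0.14 to 0.37 with a median of 0.0078, 7 above 0 and 6 below. Over all genes tested the median was -0.015 and 45.5% were above 0. Standard errors were 0.57 to 0.80, and the narrowest 95% interval, that of mt-Nd2, ran from -1.29 to 1.10. Among complex IV genes, mt-Co1 was at -0.045 (95% interval -1.42 to 1.33), mt-Co2 at 0.27 (-1.16 to 1.69) and mt-Co3 at 0.19 (-1.16 to 1.54). mt-Atp6 was at 0.068 (-1.27 to 1.40), mt-Atp8 at -0.0088 (-1.70 to 1.68) and mt-Cytb at 0.0078 (-1.31 to 1.32). In complex I, mt-Nd3 had the highest value, 0.37 (-1.04 to 1.77), and mt-Nd6 the lowest, -0.14 (-1.33 to 1.06). The other 5 were mt-Nd1 at 0.011, mt-Nd2 at -0.094, mt-Nd4 at -0.0020, mt-Nd4l at 0.18 and mt-Nd5 at -0.055. mt-Rnr1 was at 0.35 (-0.86 to 1.56) and mt-Rnr2 at 0.079 (-1.19 to 1.35). The tRNA genes mt-Tn, mt-Tc and mt-Tp were at -0.088, -0.10 and -0.15, with standard errors of 0.55 to 0.63. On recovered reads mt-Nd3, whose reads are split with Gm28438, was at -0.32 (-1.67 to 1.02), the opposite sign. In the authors' deposited table the 15 members with a p-value had log2 fold changes of -0.072 to 0.092 and none was past an adjusted p of 0.05, against 0.0187% of its genes. Their standard errors were 0.118 to 0.135, whereas DESeq2 run here gave 0.52 to 0.79 for the 13 protein-coding genes. The deposited fold changes are therefore not on a like scale with those above, and the reason was not tested.

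Without the 6 high-background libraries the intervals narrowed. In the remaining 10 libraries (5 eGFP, 5 eGFP-GluA2) standard errors of the 13 protein-coding genes fell to 0.084 to 0.35, and edgeR again put no member past the threshold, against 0.014% of genes tested. The log2 fold change of mt-Co1 was then -0.13 (95% interval -0.51 to 0.25), that of mt-Nd4 -0.026 (-0.21 to 0.16), that of mt-Cytb -0.072 (-0.31 to 0.16) and that of mt-Nd3 0.30 (-0.043 to 0.64). For mt-Rnr2 it was -0.15 (-0.58 to 0.28) and for mt-Rnr1 -0.0035 (-0.35 to 0.34). With libraries of like background as a block over all 16 libraries, all 13 protein-coding genes were below 0, with a median of -0.46 against -0.025 over all genes, and none was past the threshold (smallest adjusted p 0.981; 0.0419% of all genes were past it). This common direction was not shared by other fits: 7 of the 13 were above 0 in the fit without covariates, and 4 without the high-background libraries. In the high class the libraries compared are eGFP 1 to 4, with eGFP 2 at the highest level, and eGFP-GluA2 1 and 3.

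**Figure D5:**
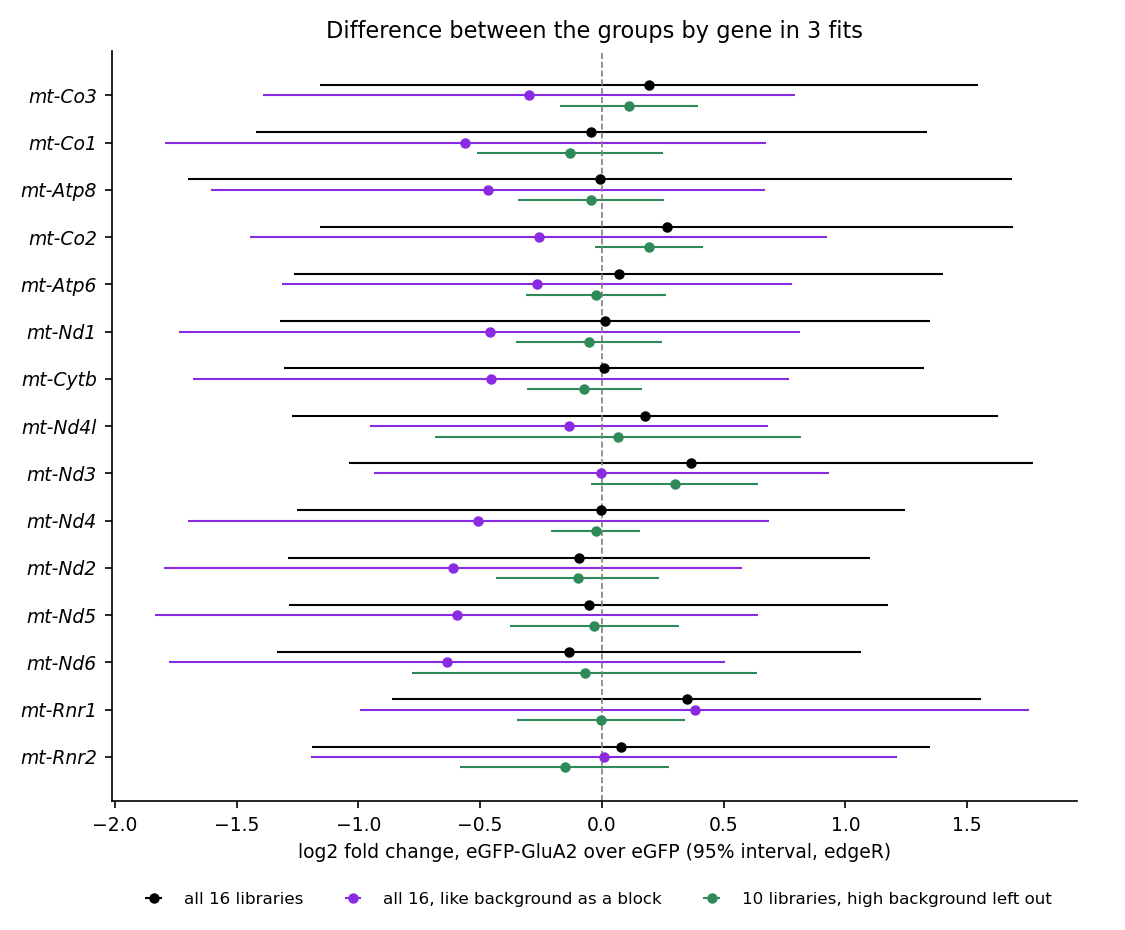
Points are log2 fold changes (eGFP-GluA2 over eGFP) by edgeR and lines their 95% intervals, for 13 protein-coding and 2 rRNA genes: all 16 libraries (black), all 16 with like background as a block (purple), and the 10 libraries without high background (green). Every line crosses 0, and the green lines are the shortest for each gene: for mt-Nd4 the black line spans -1.25 to 1.25 and the green line -0.21 to 0.16.

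Nuclear genes that work with the mitochondrial genome gave no call between the groups either. Of 231 genes on 9 lists, 229 were tested and none was past the threshold by edgeR, against 0.00381% of all genes tested. None had an unadjusted p under 0.05 by edgeR, against 1.12% of all genes, so few would be looked for at that share. Of the 229, 112 were above 0 and 117 below, beside 45.5% above 0 over all genes tested. Among nuclear subunits of complex I, 22 of 36 were above 0 (median log2 fold change 0.013), with Ndufb7 at 0.15 ± 0.25 (SE) and Ndufa13 at 0.18 ± 0.32 having the smallest p. In complex II, 1 of 4 was above 0 (median -0.022), with Sdhc at -0.059 ± 0.26 and Sdhd at 0.044 ± 0.29. In complex III, 5 of 9 were above 0 (median 0.016), with Uqcrb at -0.16 ± 0.31 and Cyc1, cytochrome c1, at 0.11 ± 0.27. The complex IV subunits were split evenly, 6 of 12 above 0, with Cox4i1 at 0.12 ± 0.34 and Cox7a2 at -0.091 ± 0.30. In complex V, 7 of the 17 tested were above 0 (median -0.019), with Atp5l at -0.12 ± 0.15 and Atp5g1 at 0.18 ± 0.29. The medians of the 5 complexes ran from -0.022 to 0.016, beside -0.015 over all genes tested.

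The genes that maintain, copy, cut and translate mitochondrial RNA were also spread around 0. Of 21 genes for maintenance and transcription of mitochondrial DNA, 8 were above 0 (median -0.048), with the coactivator Pprc1 at 0.21 ± 0.11 (SE) and the transcription factor gene Gabpa at -0.17 ± 0.11. Of 34 genes for processing and decay of mitochondrial RNA, 17 were above 0, with Elac2, which cuts the ends of tRNAs, at 0.14 ± 0.089 and Slirp, which stabilises mitochondrial mRNA, at -0.35 ± 0.30. Of 77 mitochondrial ribosomal protein genes tested, 37 were above 0 (median -0.0017), with Mrpl33 at -0.22 ± 0.11 and Mrps10 at -0.11 ± 0.071. Of 19 mitochondrial tRNA synthetase genes, 9 were above 0 (median -0.0050). Lars2, for leucine, was at -1.48 ± 0.76 (95% interval -3.08 to 0.12, unadjusted p = 0.0669 by edgeR, adjusted p = 1.00), the widest departure on the 9 lists. Its level was 46.0 to 1438 CPM in eGFP (median 124) and 41.4 to 362 CPM in eGFP-GluA2 (median 71.5), and only eGFP 5 (1438 CPM) and eGFP 2 (812 CPM) were above the highest eGFP-GluA2 library. Wars2, for tryptophan, was at -0.23 ± 0.16.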

How the data were processed

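Per the series' design text, the authors ran bcbio-nextgen 1.2.3 with STAR (GRCm38) and Sailfish (Ensembl annotation), and tested with DESeq2; the sources used here do not give which step made the deposited counts. The deposited count table holds whole numbers per gene, not normalized. The deposited TPM values are scaled for transcript length. Another deposited table holds signal values (reads divided by each library's size factor) and the authors' log2 fold change, p-values and test statistic, a score. All its normalized values (100%) were whole multiples of 1 read's value within a tolerance of 0.001, which gave 10477517 to 17382059 recovered reads per library.

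Genes were named from GENCODE M21 (GRCm38), which matched 54409 of 54532 identifiers. Coordinates and printed sequences come from its annotation and transcripts and are 1-based. Nuclear copies were found with blastn 2.17.0 against GENCODE transcripts, not against the genome, which was not used here, so copies without an annotated transcript are missed. The test was edgeR 4.0.16 (TMM scaling, filterByExpr by group, robust quasi-likelihood F test) with Benjamini-Hochberg adjustment over all genes tested and a threshold of 0.05; intervals are 95% intervals. edgeR was tested on simulated data in which the spread between libraries was capped. That run does not show how well it finds changes in genes as variable as the members. Sums and ratios over members were not tested. Named genes are the protein-coding and rRNA members, the 4 tRNA genes and 3 nuclear copies of highest mean count, and for each nuclear list the 2 genes of smallest p; other copies and eGFP-GluA2 3 were singled out after their values were seen. The members and lists were chosen with earlier results of these data known. Alternatives were DESeq2 1.42.0, limma 3.58.1 (voom, and log2(TPM + 0.5), + 0.1 and + 1), 1 surrogate variable (sva 3.50.0), other scalings and filters, recovered reads, a background covariate or block, a replicate block, and leaving out libraries. The labels number the libraries as biological replicates.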

Additional observations from a re-analysis of the deposited data

Results flagged for a closer look

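In 25 measures of the mitochondrial genes, each in 2 groups, 6 had 1 library far from the others of its group. The gap is one that chance gives in about 5% of groups of normally distributed values. Many of the measures share reads, so the 6 are not independent and cannot be set against that rate. In eGFP-GluA2 1, mt-Rnr1 was at 4.74 on the log2 CPM scale, against 8.02 in the nearest library of its group, and mt-Rnr2 at 7.37 against 10.75. The 24 RNA genes held 0.0262% of that library's counts, against 0.201% in the next lowest. In eGFP 1, mt-Tp was at -0.50 on the log2 CPM scale, against 1.94 in the next lowest. In eGFP-GluA2 3 the ratio of rRNA to protein-coding counts was 2.10, against 0.565 in the next highest library of the group, and the ratio of mt-Rnr1 to mt-Rnr2 counts was 0.328 against 0.160. All 3 libraries are of the high-background class, and the part of the background in these values was not tested.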

How the results depend on the processing

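No member was past the threshold in any of the 34 alternative fits, in which 1 to 11 of all genes were, nor was any nuclear list gene with DESeq2, with the background covariate or without each library in turn; adjusted p-values of the 15 protein-coding and rRNA genes were 0.515 or more. The differences in the summed percents and the mt-Nd6 share, and the mean percent in nuclear copies, moved by less than 1 SD in every alternative run. The difference for the protein-coding genes still changed sign, from -0.0045 percentage points to 0.050 on recovered reads and 0.16 in TPM. For the copies the alternative runs were a stricter match and leaving out each library. They did not include recovered reads, on which the copies held 1.21% to 3.07% (mean 1.93%). That mean lies more than 1 SD (0.697) below the 3.28% of deposited counts.

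Signs of the log2 fold changes changed in 56 of 270 values and, leaving out each library, in 62 of 240; the cause was not tested. Under DESeq2 mt-Nd1 was at -0.0079 and mt-Cytb at -0.0095, and under RLE scaling at -0.0083 and -0.0098. With the background covariate mt-Nd1 was at -0.025, mt-Atp6 at -0.017 and mt-Cytb at -0.025, and with 1 surrogate variable at -0.066, -0.042 and -0.065. With like background as a block mt-Nd1 was at -0.46, mt-Co2 at -0.26, mt-Atp6 at -0.27, mt-Co3 at -0.30, mt-Nd3 at -0.0027, mt-Nd4l at -0.14 and mt-Cytb at -0.46. Without high-background libraries mt-Rnr1 was at -0.0035, mt-Rnr2 at -0.15, mt-Nd1 at -0.053, mt-Atp6 at -0.025 and mt-Cytb at -0.072. By limma on log2(TPM + 0.5) mt-Nd2 was at 0.12, mt-Co1 at 0.18, mt-Atp8 at 0.20, mt-Nd3 at -0.15, mt-Nd4 at 0.16 and mt-Nd5 at 0.17. With a pseudocount of 0.1 these were 0.12, 0.18, 0.20, -0.15, 0.16 and 0.17, and with 1 they were 0.11, 0.18, 0.20, -0.15, 0.16 and 0.17. By limma-voom mt-Co1 was at 0.0069, mt-Nd4 at 0.047 and mt-Nd5 at 0.019, and without a filter mt-Nd4 was at 0.0055. On recovered reads mt-Co1 was at 0.042, mt-Atp8 at 0.013, mt-Nd3 at -0.32, mt-Nd4l at -0.11 and mt-Nd4 at 0.011. Without both replicates 1, a choice made after seeing the data, mt-Atp8 was at 0.032 and mt-Nd4 at 0.025.

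Leaving out each library in turn gave -0.080 to 0.28 for mt-Rnr2, -0.15 to 0.22 for mt-Nd1, -0.28 to 0.10 for mt-Nd2, -0.21 to 0.16 for mt-Co1, -0.18 to 0.21 for mt-Atp8, -0.10 to 0.28 for mt-Atp6, -0.16 to 0.20 for mt-Nd4, -0.25 to 0.14 for mt-Nd5, -0.37 to 0.061 for mt-Nd6 and -0.16 to 0.21 for mt-Cytb. The replicate numbers were not taken to pair the libraries: same-numbered libraries correlated at -0.028 to 0.90, 6 of 7 pairs over 0.1, and 3 of 7 correlated best with their own number. With the replicate block 0 members were past the threshold, as without it; 5 had an unadjusted p under 0.05, beside 8.72% of all genes, namely mt-Nd3 at 0.76 (95% interval 0.32 to 1.21), mt-Co3 at 0.48 (0.11 to 0.85), mt-Co2 at 0.54 (0.088 to 1.00), mt-Rnr2 at 0.65 (0.072 to 1.23) and mt-Cytb at 0.45 (0.017 to 0.89), each with adjusted p = 0.515 by edgeR. In that fit 12 of the 13 protein-coding genes were above 0, with a median of 0.38 and standard errors of 0.17 to 0.44, the opposite direction to the fit with like background as a block. Over all genes in the replicate block fit the median was -0.083 and 38.2% were above 0. There mt-Nd2 was at 0.19, mt-Co1 at 0.38, mt-Atp8 at 0.15, mt-Nd4 at 0.27 and mt-Nd5 at 0.16. The block moved the calls over all genes from 1 to 8.

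Depth limits the values of mt-Atp8 (0 to 63 deposited counts per library), mt-Nd4l (0 to 28) and the tRNA genes, but less so those of mt-Co1 (1198 to 57254).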
